A study of Mus musculus with 6 samples.

Results

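The 7 genes described here, *Pcsk1*, *Pcsk2*, *Pcsk1n*, *Scg5*, *Cpe*, *Pam* and *Qpct*, encode the machinery that turns prohormones into active hormones in islet cells. They were chosen by name, for their place in this pathway, from the 32285 genes counted by single-cell RNA-Seq of mouse islets. Peptide hormones are made as longer precursors that are cut in the secretory granule at pairs of basic residues. PC1/3 and PC2, the products of *Pcsk1* and *Pcsk2*, make these cuts, proSAAS (*Pcsk1n*) and 7B2 (*Scg5*) are their respective small partner proteins, and carboxypeptidase E (*Cpe*) trims the basic residues left behind. Peptidylglycine α-amidating monooxygenase (*Pam*) amidates C-termini such as that of pancreatic polypeptide, and glutaminyl cyclase (*Qpct*) forms N-terminal pyroglutamate. In textbook islet biology, proinsulin is cut by both convertases in β cells, whereas glucagon is released from proglucagon by PC2 in α cells.

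Islets came from 3 WT and 3 β14-3-3ζ–KO samples of C57/BL6 mice aged 12 to 14 weeks, each of which gave 1 droplet library of the 3′ ends of transcripts. In the KO mice, loxP sites flank exon 4 of *Ywhaz*, the gene for 14-3-3ζ, and Cre is driven from the *Ins1* locus (*Ins1*CreThor), so the deletion is directed to β cells. The WT controls were littermates that also carried Cre, so the Cre allele was common to both groups. The study describes separate mice, the labels give no animal numbers, and p-values measure the spread between these libraries.

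The libraries held 43445 barcodes, of which 25087 passed the limits on genes, mitochondrial UMIs and doublets (1801 to 7419 per library). UMIs, the unique molecular tags that count transcripts, numbered 3300 to 25402 per kept barcode (library medians). Cells were assigned to classes by their dominant hormone, which gave 6539 β cells (811 to 1392 per library), 681 α cells (48 to 200), 511 δ cells (64 to 126) and 213 Ppy cells (15 to 43). Of the fixed markers, 9 of 10 for β cells, 5 of 7 for α cells, 5 of 5 for δ cells and 3 of 4 for Ppy cells were highest in their own class. The exceptions among the β and Ppy markers, *Slc30a8* and *Etv1*, were highest in α cells. The markers include *Ins1*, *Ins2*, *Gcg*, *Sst* and *Ppy*, which set the classes, so their own places were fixed in advance. In β cells *Ywhaz* was at 258.7 to 305.7 CPM (counts scaled to a common total of 1000000) in WT libraries and 34.0 to 39.5 in KO libraries, and tags at 3′ ends count its transcripts without reading the deleted exon. KO replicate 2 stood apart, since 428 of its 1392 β cells had under 2500 genes. Its B cell markers reached 40.1 CPM in the β sum, against 25.4 CPM in WT replicate 2 and 5.69 to 9.52 CPM in the other libraries. In the α sums these markers were higher in WT replicate 2 (29.4 CPM) than in KO replicate 2 (27.1 CPM). WT replicate 1 stood apart from the other WT libraries. The chi-square per degree of freedom between β sums was 90.7 and 84.4 for its pairs with WT replicates 2 and 3, against 10.4 between those 2, while the pairs of KO replicate 2 were at 34.7 and 31.4 against 8.81 between KO replicates 1 and 3. Hormones other than *Pyy* and *Iapp* took 48.7% of the β cell UMIs of WT replicate 1, against 40.9% to 44.0% in the other libraries. Any 2 libraries shared 1 to 14 kept barcodes.

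Levels below are UMIs summed over the cells of a class in 1 library, as CPM of the UMIs left after the islet hormones (*Ins1*, *Ins2*, *Gcg*, *Sst*, *Ppy*, *Pyy*, *Iapp*) were set aside. This was done because hormones took unlike shares of the classes. Even without *Pyy* and *Iapp*, they took on average 43.2% of UMIs in β cells and 16.0% in δ cells. Levels are compared for 1 gene between classes, never between genes, because a 3′ count does not give levels per length. The fits described below kept the hormone UMIs and scaled the sums otherwise, so their fold changes are not ratios of these levels. Of the 7 genes, 6 had a UMI in over 15% of the cells of a class and were tested, and *Qpct* did not.

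The sequences upstream of the 2 convertase genes and of their partner genes are shown because the ratios between classes described below are made from these 4 genes. They were taken from RefSeq (build GRCm38.p6), which held a window for 5 of the 7 genes and none for *Cpe* or *Qpct*. Each runs 5′ to 3′ on the gene's strand and stops at the first annotated transcript start. Capitals mark TGACG or its complement CGTCA, the core of the cAMP response element. The positions are chr13:75089607-75089825 (plus strand) for *Pcsk1*, chr2:143545883-143546132 (plus) for *Pcsk2*, chrX:7919572-7919821 (plus) for *Pcsk1n* and chr2:113829122-113829341 (minus) for *Scg5*.
Pcsk1: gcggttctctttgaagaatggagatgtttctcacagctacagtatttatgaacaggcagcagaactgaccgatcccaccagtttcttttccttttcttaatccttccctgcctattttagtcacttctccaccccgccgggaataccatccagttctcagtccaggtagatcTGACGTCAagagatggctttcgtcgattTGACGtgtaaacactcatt
Pcsk2: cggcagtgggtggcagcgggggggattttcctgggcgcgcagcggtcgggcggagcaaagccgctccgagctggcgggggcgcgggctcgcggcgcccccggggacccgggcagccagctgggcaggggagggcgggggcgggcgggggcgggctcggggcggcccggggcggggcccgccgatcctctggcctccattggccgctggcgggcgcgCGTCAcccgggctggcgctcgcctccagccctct
Pcsk1n: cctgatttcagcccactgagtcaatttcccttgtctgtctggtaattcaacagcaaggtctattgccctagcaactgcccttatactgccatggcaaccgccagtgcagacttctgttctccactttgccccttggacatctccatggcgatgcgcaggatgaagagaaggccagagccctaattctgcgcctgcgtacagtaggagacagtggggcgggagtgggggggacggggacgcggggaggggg
Scg5: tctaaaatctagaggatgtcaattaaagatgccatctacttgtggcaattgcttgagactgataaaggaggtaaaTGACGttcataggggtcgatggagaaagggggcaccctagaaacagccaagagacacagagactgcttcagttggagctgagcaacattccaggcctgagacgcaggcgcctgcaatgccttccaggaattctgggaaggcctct

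The *Pcsk1* window held the core 3 times on both strands together, 2 of them overlapping in the full 8-base palindrome, while *Pcsk2* and *Scg5* held it once each and *Pcsk1n* did not hold it. Of 32851 mouse promoter windows of 250 bases, 17.8% held the core on either strand. Over the full window of 250 bases, that of *Pcsk2* was 82.4% G and C with 35 CG dinucleotides and 7 matches to GGGCGG, against 46.8%, 8 and 0 for *Pcsk1*. The median window was 52.4% G and C with 6 CG dinucleotides, and 32.7% of windows held GGGCGG on either strand. These matches describe the letters in the window, and no binding was measured.

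In the GENCODE annotation of GRCm38, *Pcsk1* lies on chromosome 13 from 75089826 to 75134861 (plus strand, 45036 bases), and *Pcsk2* on chromosome 2 from 143546156 to 143816285 (plus, 270130 bases). *Pcsk1n* lies on chromosome X from 7919822 to 7924410 (plus), and *Scg5* on chromosome 2 from 113776362 to 113829121 (minus). *Cpe* lies on chromosome 8 from 64592542 to 64693054 (minus), *Pam* on chromosome 1 from 97795114 to 98095646 (minus), and *Qpct* on chromosome 17 from 79051906 to 79090378 (plus). Annotated antisense genes (*Pcsk2os1* and *Pcsk2os2*) overlap *Pcsk2*, *Eras* overlaps *Pcsk1n* on the other strand, and 5 annotated genes overlap *Pam*, 3 of them on its strand. The strand setting of the counting is not given in the sources used here, so reads of these overlaps may be shared.

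The first comparison asked how the enzymes are divided among the endocrine classes. *Pcsk1* was the gene with the widest range. It stood at 383.1, 418.6 and 334.9 CPM in β cells of WT replicates 1 to 3, and at 362.1, 369.2 and 401.0 CPM in those of KO replicates 1 to 3. In α cells it stood at 8.07, 17.4 and 19.6 CPM in the WT replicates and 12.4, 32.8 and 25.5 CPM in the KO replicates. Every β cell sum lay above every α cell sum by a wide margin. δ cells held 45.0 to 75.4 CPM and Ppy cells 28.3 to 78.8 CPM over the 6 libraries, between the α and β ranges apart from an overlap of the lowest Ppy library with the highest α library. With library as a block, *Pcsk1* was 17.4-fold lower in α than in β cells (log2 fold change −4.12 ± 0.12 SE, adjusted p = 5.2e-26, edgeR's quasi-likelihood fit, adjusted by Benjamini-Hochberg). As free β cell RNA amounted on average to 87.0% of the α cell *Pcsk1* level, this fold is a lower limit. It was 6.14-fold lower in δ cells (log2 −2.62 ± 0.10, adjusted p = 4.1e-22) and 6.71-fold lower in Ppy cells (log2 −2.75 ± 0.13, adjusted p = 5.0e-19). Ppy and δ cells did not differ beyond their spread (log2 −0.13, 95% confidence interval −0.49 to 0.24).

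*Pcsk2* was high in every class and its order was the reverse. In β cells it ranged from 4102 to 4722 CPM and in α cells from 6016 to 7122 CPM, and the 2 ranges did not overlap. It was 1.59-fold higher in α cells (log2 0.67 ± 0.08, adjusted p = 9.7e-10) and 1.22-fold higher in Ppy cells (log2 0.29 ± 0.08, adjusted p = 0.0016). δ cells, at 4702 to 5538 CPM, overlapped with the top of the β range. Their log2 difference of 0.17 ± 0.08 from β cells had an adjusted p of 0.0502 and was not called. It passed without WT replicate 1 (adjusted p = 0.0264), with DESeq2 (adjusted p = 0.00062), and with hormone UMIs left out (adjusted p = 0.0186).

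**Figure D1:**
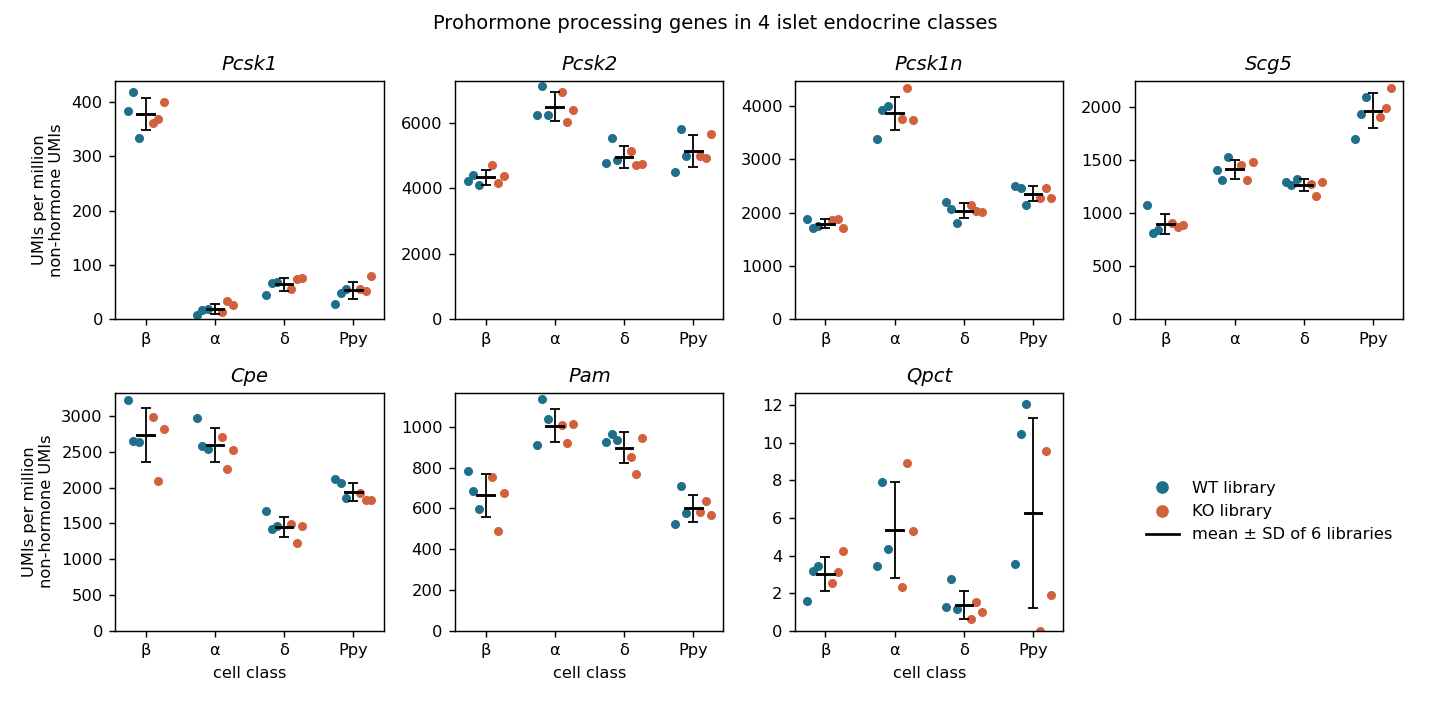
Level of each of the 7 genes (y axis, CPM of non-hormone UMIs, starting at 0) in β, α, δ and Ppy cells (x axis). Points are libraries, blue for WT and orange for KO, and the bars give the mean ± SD of the 6 libraries. *Pcsk1* stands near 378 CPM in β cells and under 80 CPM in the other classes, and *Pcsk1n* and *Pcsk2* are highest in α cells.

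The partners of the convertases did not follow a single order. *Pcsk1n*, whose product proSAAS inhibits PC1/3, was at 1704 to 1875 CPM in β cells and 3391 to 4338 CPM in α cells. It was thus highest where *Pcsk1* was lowest, 2.29-fold higher in α than in β cells (log2 1.20 ± 0.07, adjusted p = 9.8e-18). Ppy cells were 1.35-fold higher than β cells (log2 0.43 ± 0.07, adjusted p = 1.7e-06). δ cells overlapped with β cells (1797 to 2206 CPM) and their log2 difference was 0.16 ± 0.07 (adjusted p = 0.038). This last call was lost without WT replicate 2 (adjusted p = 0.121), without KO replicate 1 (0.0999) and without KO replicate 3 (0.116), in edgeR throughout.

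*Scg5*, whose product 7B2 is the chaperone that PC2 needs to become active, was highest in Ppy cells. It ranged from 810.3 to 1071 CPM in β cells, from 1307 to 1523 CPM in α cells, from 1160 to 1315 CPM in δ cells and from 1695 to 2173 CPM in Ppy cells. Only the α and δ ranges overlapped. Against β cells it was 2.26-fold higher in Ppy cells (log2 1.18 ± 0.07, adjusted p = 7.9e-16), 1.68-fold higher in α cells (log2 0.75 ± 0.07, adjusted p = 3.3e-11) and 1.39-fold higher in δ cells (log2 0.47 ± 0.07, adjusted p = 8.2e-07).

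*Cpe*, the carboxypeptidase of the secretory granule, had the lowest levels in δ cells. It was at 2098 to 3229 CPM in β cells and 2264 to 2975 CPM in α cells, ranges that overlapped, with a log2 difference of 0.02 (95% confidence interval −0.11 to 0.15). In δ cells it was at 1233 to 1671 CPM, 1.90-fold below β cells (log2 −0.93 ± 0.07, adjusted p = 6.1e-15), and in Ppy cells at 1826 to 2123 CPM, 1.36-fold below them (log2 −0.45 ± 0.07, adjusted p = 5.4e-07). KO replicate 2 was the lowest library for *Cpe* in each of the 4 classes.

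*Pam*, the amidating enzyme, divided the classes in another way. α cells (909.9 to 1135 CPM) and δ cells (768.7 to 963.5 CPM) lay above β cells (489.7 to 782.5 CPM), with a small overlap between δ and β cells. The log2 differences from β cells were 0.70 ± 0.08 in α cells (adjusted p = 4.5e-10) and 0.42 ± 0.08 in δ cells (adjusted p = 1.4e-05). Ppy cells, whose hormone is itself amidated, were at 523.8 to 710.6 CPM and did not differ from β cells beyond the spread (log2 −0.09, 95% confidence interval −0.26 to 0.08).

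*Qpct* was scarce in all 4 classes, with 28 to 86 UMIs per library in β cells and 1 to 3 in δ cells, and its levels are given without a test. Its mean was 3.0 ± 0.9 CPM in β cells, 5.4 ± 2.6 in α cells, 1.4 ± 0.7 in δ cells and 6.3 ± 5.1 in Ppy cells (SD, n = 6). Each range overlapped with at least 1 other.

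Counted over the 6 tested genes, 5 were called between α and β cells, 5 between δ and β cells and 5 between Ppy and β cells (adjusted p under 0.05 and a log2 change beyond 0.1 either way). Among all 9868 genes tested, 62.6%, 61.3% and 52.3% were called in the same 3 comparisons, so most genes differed between classes. Between δ and α cells all 6 were called (45.7% of all genes), between Ppy and α cells all 6 (26.6%), and between Ppy and δ cells 4 (27.8%). The median log2 fold change of the 6 genes was 0.69 for α against β cells, where that of all genes was 0.01.

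After cells were thinned to 3000 UMIs each, which left out none of the 4 endocrine classes but 164 of 2348 B cells, 83 of 919 endothelial cells and 69 of 496 macrophages with fewer, *Pcsk1* was found in 40.7% ± 3.7 of β cells, 13.0% ± 3.7 of δ cells, 7.6% ± 3.2 of Ppy cells and 4.6% ± 2.9 of α cells (SD, n = 6). In cell types that should lack it, the thinned shares were 5.95% ± 4.27 in endothelial cells, 3.52% ± 2.78 in macrophages and 13.0% ± 5.6 in B cells. Library medians of UMIs per cell were 18486 to 41736 in β cells, 12313 to 24573 in α cells and 3867 to 4919 in B cells. The β share lay above all of these by far more than the spread, whereas the α, δ and Ppy shares did not exceed that of B cells beyond it and are not read as expression. Before thinning, the shares were 89.3% in β cells, 48.9% in δ cells, 30.6% in Ppy cells and 19.6% in α cells. *Pcsk2* was found in 98.4% to 100.0% of cells of the 4 classes after thinning. *Scg5* was found in 73.6% ± 2.2 of β cells against 94.3% ± 1.9 of α cells.

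Free RNA from broken β cells can enter other cells' droplets. The *Pcsk1* counts outside β cells were therefore compared with the amount that would come along with the *Ins2* UMIs of the same cells. This takes free RNA to have the composition of the β sums, which was not tested. In single libraries of non-endocrine types, observed *Pcsk1* was 0.68-fold to 2.95-fold the amount from a mixture of free endocrine RNA, described below. In α cells the free-RNA amount was 17.0 ± 9.9 CPM and the observed level 19.3 ± 8.9 CPM (SD, n = 6). The observed level was above the free-RNA amount in 5 of 6 libraries, 1.19-fold on average (exact sign-flip permutation test, 2-sided p = 0.25). *Pcsk1* expression in α cells was therefore not detectable above free β cell RNA. In δ cells the observed 64.4 ± 12.0 CPM stood against 14.9 ± 7.4 CPM, 4.80-fold above and higher in 6 of 6 libraries (exact p = 0.031, the smallest that 6 libraries allow, and 0.0345 adjusted over 21 comparisons). In Ppy cells 53.1 ± 16.2 CPM stood against 22.0 ± 12.5 CPM, 2.60-fold above in 6 of 6 libraries (exact p = 0.031, adjusted 0.0345). The free amount was thus on average 22.2% of the δ level and 40.9% of the Ppy level (17.7% to 80.0% over libraries). With it subtracted, a step chosen after seeing the data, *Pcsk1* stood at 49.4 ± 7.1 CPM in δ cells and 31.1 ± 15.7 CPM in Ppy cells. On this CPM scale the fold below β cells went from 5.95 to 7.70 in δ cells and from 7.42 to 13.8 in Ppy cells. The Ppy level then lay below the δ level in 6 of 6 libraries (log2 −0.84 ± 0.84, SD, exact sign-flip permutation p = 0.031, unadjusted), against 4 of 6 as observed (log2 −0.32 ± 0.29, exact p = 0.125). The difference was largest in KO replicate 2, where 42.2 of 52.7 CPM was subtracted in Ppy cells. In KO replicate 3 the subtracted levels were nearly equal (78.8 less 24.2 CPM in Ppy cells, 75.4 less 20.1 CPM in δ cells). In α cells the subtraction left 1 library below 0, and no fold is given. For *Pcsk2*, *Pcsk1n*, *Scg5*, *Cpe* and *Pam*, free β cell RNA amounted on average to 2.0% to 7.8% of the observed UMIs in these 3 classes.

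**Figure D2:**
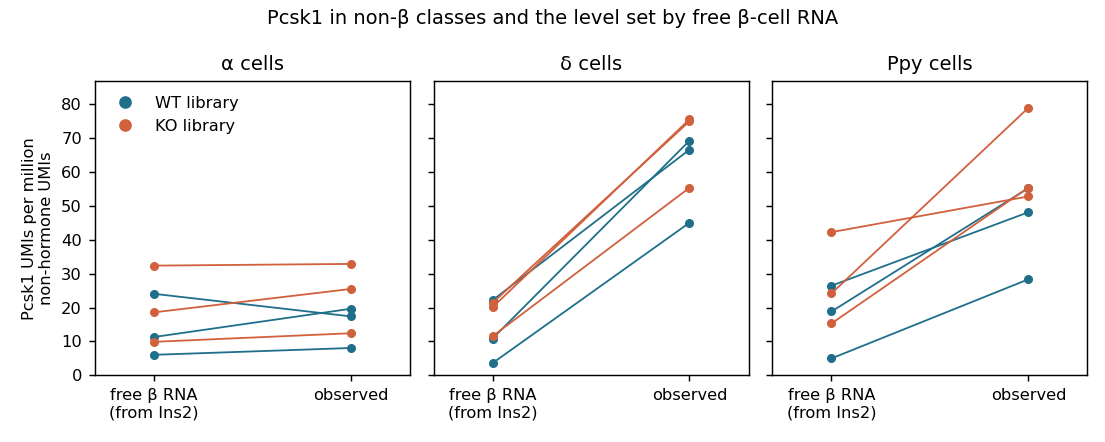
*Pcsk1* in α, δ and Ppy cells as CPM of non-hormone UMIs (y axis, starting at 0), with the amount set by free β cell RNA from the *Ins2* UMIs at the left of each panel and the observed level at the right. Each line is a library, blue for WT and orange for KO. The lines are near level in α cells, where 1 falls, and rise in all 6 libraries in δ cells and Ppy cells.

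Ratios of 2 members within a sum do not depend on its total. As geometric means over libraries, the number of *Pcsk1* UMIs for each *Pcsk2* UMI was 0.0872 in β cells (0.0767 to 0.0952 over libraries), 0.0129 in δ cells (0.0095 to 0.0161), 0.0102 in Ppy cells (0.00667 to 0.0141) and 0.00278 in α cells (0.00139 to 0.00551). The β range did not touch any other. The *Pcsk1*-to-*Pcsk2* ratio was 31.4-fold higher in β than in α cells and 6.76-fold higher in β than in δ cells, in 6 of 6 libraries each (exact sign-flip permutation p = 0.031, adjusted 0.0352 over 18 comparisons). Its difference between Ppy and δ cells, log2 −0.34 ± 0.24 (SD, n = 6), was not past the threshold (exact p = 0.0625). The *Pcsk1n*-to-*Pcsk1* ratio was 4.75 in β cells, 31.9 in δ cells, 45.1 in Ppy cells and 214.4 in α cells. The *Scg5*-to-*Pcsk2* ratio was 0.207 in β cells, 0.218 in α cells, 0.255 in δ cells and 0.382 in Ppy cells. It did not differ between α and β cells (log2 0.08 ± 0.15, exact p = 0.25) and was 1.85-fold higher in Ppy than in β cells in 6 of 6 libraries (exact p = 0.031, adjusted 0.0352). *Pcsk1* UMIs in α cells were near the free-RNA amount, so the α ratios that hold *Pcsk1* are limits set by free RNA. With free β cell RNA subtracted, the *Pcsk1*-to-*Pcsk2* ratio of Ppy cells went from 8.79-fold to 15.5-fold below that of β cells. The *Pcsk1n*-to-*Pcsk1* ratio of Ppy cells went from 9.73-fold to 17.3-fold above that of β cells. Between Ppy and δ cells the *Pcsk1*-to-*Pcsk2* difference became log2 −0.87 ± 0.81, lower in Ppy cells in 6 of 6 libraries (exact p = 0.031, unadjusted). It was again largest in KO replicate 2.

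**Figure D3:**
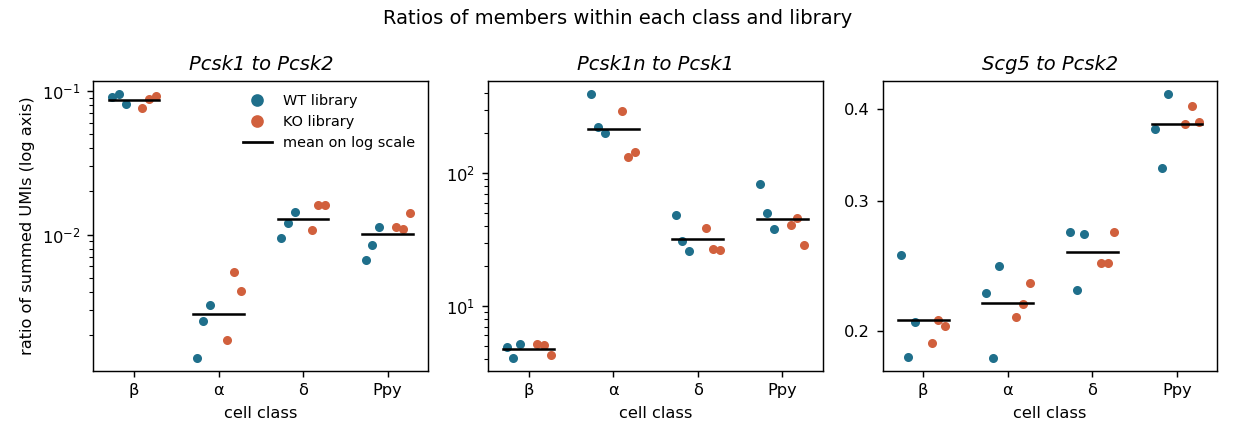
Ratio of summed UMIs (y axis, logarithmic) of *Pcsk1* to *Pcsk2*, *Pcsk1n* to *Pcsk1* and *Scg5* to *Pcsk2* in β, α, δ and Ppy cells (x axis). Points are libraries, blue for WT and orange for KO, and lines give the mean on the log scale. The *Pcsk1*-to-*Pcsk2* ratio is 0.0872 in β cells and at most 0.0161 in any library of another class.

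The second comparison asked whether the KO libraries showed other levels of these genes. KO β cells in which *Ywhaz* was counted were dropped, after the study's practice. This kept 59.7%, 69.8% and 58.3% of the β cells of KO replicates 1 to 3, whereas all WT β cells were kept. As 3′ tags do not read the deleted exon, a *Ywhaz* UMI does not by itself mark a cell without the deletion. In β cells, *Pcsk1* was at 378.9 ± 42.0 CPM in WT and 376.8 ± 18.8 CPM in KO libraries (SD, n = 3), with a log2 fold change of 0.02 (95% confidence interval −0.20 to 0.24). *Pcsk2* was at 4240 ± 148 and 4407 ± 265 CPM, with a log2 fold change of 0.08 (−0.16 to 0.33). The WT and KO ranges overlapped for both convertases. *Pcsk1n* was at 1777 ± 87 and 1847 ± 106 CPM (log2 0.09, −0.15 to 0.32), and *Scg5* at 907.8 ± 142.1 and 894.5 ± 23.6 CPM (log2 0.00, −0.28 to 0.29). *Cpe* was at 2840 ± 337 and 2654 ± 469 CPM (log2 −0.08, −0.42 to 0.26), and *Pam* at 688.2 ± 92.7 and 629.0 ± 120.5 CPM (log2 −0.11, −0.45 to 0.23). Without KO replicate 2, the library with the most β cells of few genes, the values of *Cpe* and *Pam* turned to 0.038 and 0.010, and without WT replicate 1 to 0.052 and 0.020. *Scg5*, whose highest β level (1071 CPM) was in WT replicate 1, was at 0.17 without it. The intervals allow differences in either direction and do not show that the levels were equal.

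None of the 6 tested genes was called in β, α, δ or Ppy cells by edgeR, and DESeq2 called none either. In the edgeR fit without a block, none had an unadjusted p under 0.05. Over all genes, 0.0109% were called in β cells, 0% in α cells, 0% in δ cells and 0.0111% in Ppy cells. The call in β cells was *Ywhaz*, whose level there was set to 0 by the choice of cells, and that in Ppy cells was *Gm10076*, named here after its values were seen. DESeq2 called 7, 1, 0 and 1 genes. Unadjusted p-values under 0.05 were found for 419, 355, 322 and 438 genes. WT and KO libraries overlapped for every one of the 6 genes in every class, where 11%, 9.37%, 8.52% and 9.76% of all genes tested did not overlap. The lowest adjusted p among the 6 genes was 0.92 in β cells, 0.9999 in α cells, 0.9998 in δ cells and 0.971 in Ppy cells. A further fit took the replicate number as a block, a pairing that the labels do not state. The 6 genes again gave 0 calls in each class. The calls over all genes rose to 12 in β cells, 3 in α cells, 6 in δ cells and 2 in Ppy cells.

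*Pcsk1* outside β cells had the largest fitted differences and the widest intervals. In α cells its level was 15.0 ± 6.1 CPM in WT and 23.6 ± 10.3 CPM in KO libraries, a log2 fold change of 0.62 (−0.05 to 1.29) that rests on 7 to 59 UMIs per library. The free β cell amount in the same cells was 6.06 to 24.0 CPM in WT and 9.89 to 32.3 CPM in KO libraries, and its part in the difference was not tested. In Ppy cells the log2 fold change was 0.44 (−0.09 to 0.97) and in δ cells 0.19 (−0.19 to 0.57), which turned to −0.032 without WT replicate 1. Libraries of the same number were compared as pairs after the data were seen. *Pcsk1* was higher in KO in 9 of 9 pairs of these 3 classes, which share their libraries. In β cells it was higher in 1 of 3 pairs. The mean differences of the pairs were log2 0.64 in α, 0.20 in δ and 0.54 in Ppy cells, with an exact sign-flip permutation p of 0.25 in each, the smallest that 3 pairs allow. The free β cell amount of *Pcsk1* was also higher in KO in 3 of 3 pairs in α cells, 2 of 3 in δ cells and 3 of 3 in Ppy cells (mean log2 0.62, 0.83 and 0.88), and its part in these differences was not tested. With the replicate block, edgeR gave log2 0.64 ± 0.24 SE in α cells (adjusted p = 0.687), 0.21 ± 0.15 in δ cells (0.999) and 0.48 ± 0.25 in Ppy cells (0.931), none of them called. Unadjusted p-values of this blocked fit are not given, so the statement on them above covers only the fit without a block. The genotype difference in α cells minus that in β cells was 0.61 for *Pcsk1* (−0.01 to 1.22, adjusted p = 0.9999 over all genes), and none of the 6 genes passed this test for α, δ or Ppy cells. Over all genes, 0.0203%, 0.0203% and 0.0101% passed it, and these calls were *Ywhaz* in all 3 terms and *Igkc*, an immunoglobulin gene of B cells named after its values were seen, in those of α and δ cells. No member had an unadjusted p under 0.05 for these terms, and DESeq2 was not run for them.

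**Figure D4:**
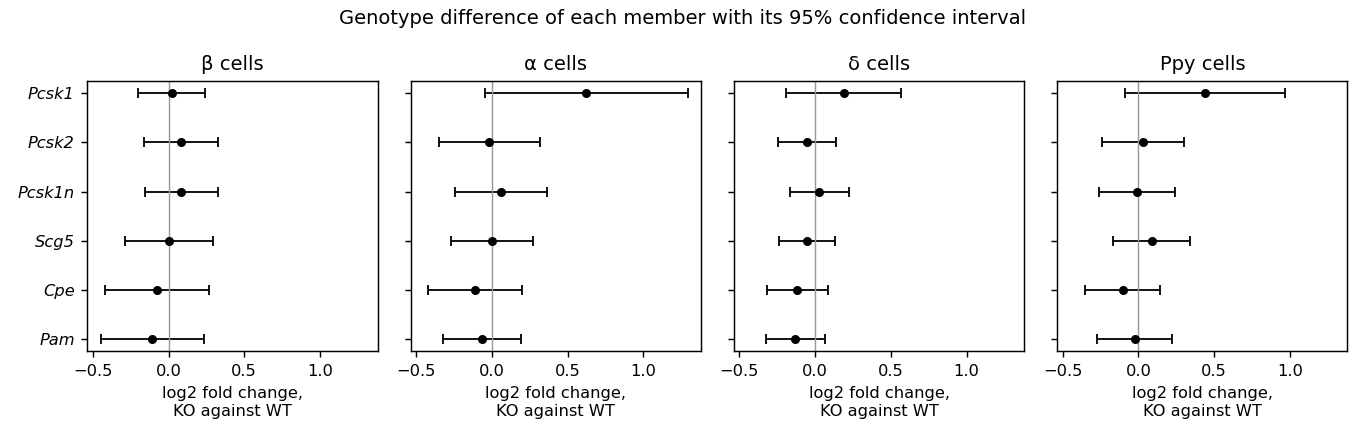
Log2 fold change of KO against WT (x axis) for the 6 tested genes in β, α, δ and Ppy cells, with 3 libraries per genotype. Points are edgeR estimates and bars their 95% confidence intervals. Every interval spans 0, and those of *Pcsk1* in α cells (−0.05 to 1.29) and Ppy cells (−0.09 to 0.97) are wider than those of the other genes in the same class.

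For the ratios of members the WT and KO ranges overlapped. The *Pcsk1*-to-*Pcsk2* ratio in β cells differed by log2 −0.06 between KO and WT (exact permutation p = 0.6, where 3 against 3 libraries cannot go below 0.1). Over the 3 ratios and 4 classes, 0 of 12 comparisons had non-overlapping genotypes, and the lowest exact p was 0.2. By pairs of the same number, compared after the data were seen, the *Pcsk1*-to-*Pcsk2* ratio was higher in KO in 3 of 3 pairs in each of α, δ and Ppy cells (mean log2 0.63, 0.25 and 0.49, exact sign-flip permutation p = 0.25 each, the smallest that 3 pairs allow) and in 1 of 3 in β cells. The *Pcsk1n*-to-*Pcsk1* ratio was higher in KO in 0 of 3 pairs in α and Ppy cells (log2 −0.55 and −0.53, exact p = 0.25 each). These ratios hold the *Pcsk1* counts described above, with their free β cell RNA.

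The third comparison asked whether any of the 7 genes was found outside the endocrine classes beyond free RNA. In endothelial, stellate, macrophage, B and T cells, the UMIs of *Ins2*, *Gcg*, *Sst* and *Ppy* fixed the mixture of free endocrine RNA in each library (the mixture missed these hormones by up to 2.24-fold in macrophages of WT replicate 2, and elsewhere by at most 1.21-fold), and each gene's observed UMIs were set against that mixture, here as CPM of all UMIs. *Pcsk2* had mean log2 values of −0.53 to −0.11 against the mixture, with 199.8 ± 76.7 CPM in endothelial cells against 253.9 CPM given by free RNA (log2 −0.23 ± 0.50, above in 1 of 6 libraries). Where *Ins2* alone set the amount of free RNA, the *Pcsk2* value turned to 0.14 in endothelial cells and 0.40 in macrophages. *Pcsk1* and *Pcsk1n* had mean log2 values of −0.16 to 0.32 over the 5 cell types, and *Pcsk1n* was above the mixture in 6 of 6 macrophage libraries (log2 0.29 ± 0.25). *Scg5* was above it in 6 of 6 endothelial libraries (log2 0.41 ± 0.31) and 6 of 6 B cell libraries (log2 0.27 ± 0.22). *Pam* was above the mixture in 6 of 6 endothelial libraries (98.1 against 37.0 CPM, log2 1.54 ± 0.69) and in 5 of 5 stellate libraries (157.7 against 28.7 CPM, log2 2.46 ± 0.51), and in 6 of 6 macrophage libraries by less (log2 0.65 ± 0.52, 0.14 to 1.53 over libraries). *Cpe* was above it in every library of all 5 cell types, with mean log2 values of 0.54 to 0.98. The mixture takes free RNA to have the composition of the endocrine sums, which was not tested, so these values are not by themselves read as expression.

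*Qpct*, low in endocrine cells, had its highest mean level in macrophages. They held 6 to 20 *Qpct* UMIs per library, against under 1 UMI given by free RNA in each, and their mean level was 12.6 CPM against 0.204 CPM (log2 4.06 ± 0.57 with 0.5 UMIs added to each count, above in 6 of 6 libraries). Without WT replicate 2 the macrophage values were log2 4.15 for *Qpct*, 0.73 for *Pam*, 0.90 for *Cpe* and 0.33 for *Pcsk1n*, above in 5 of 5 libraries each. Endothelial cells held 2 to 14 UMIs (log2 2.98 ± 0.67, 6 of 6 libraries). In B cells it was 0 to 7 UMIs and did not stand above the mixture beyond its spread (log2 0.39 ± 0.79). T cells held 0 to 18 *Qpct* UMIs (log2 −0.03 to 3.84 over libraries) and stellate cells 0 to 4 (log2 −0.03 to 3.16). In both types only KO replicate 1, with 0 UMIs, was not above the mixture. The exact sign-flip permutation p was 0.031 for each gene above the mixture in 6 of 6 libraries, the smallest that 6 libraries allow. Adjusted over 35 comparisons it was 0.109. Stellate and T cells had 5 libraries each, which cannot reach even 0.031. With these numbers of libraries no outcome could have passed the adjusted threshold, so that 0 passed says nothing about the genes. Of the 35 comparisons, 10 had an unadjusted p under 0.05, all of them above the mixture.

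**Figure D5:**
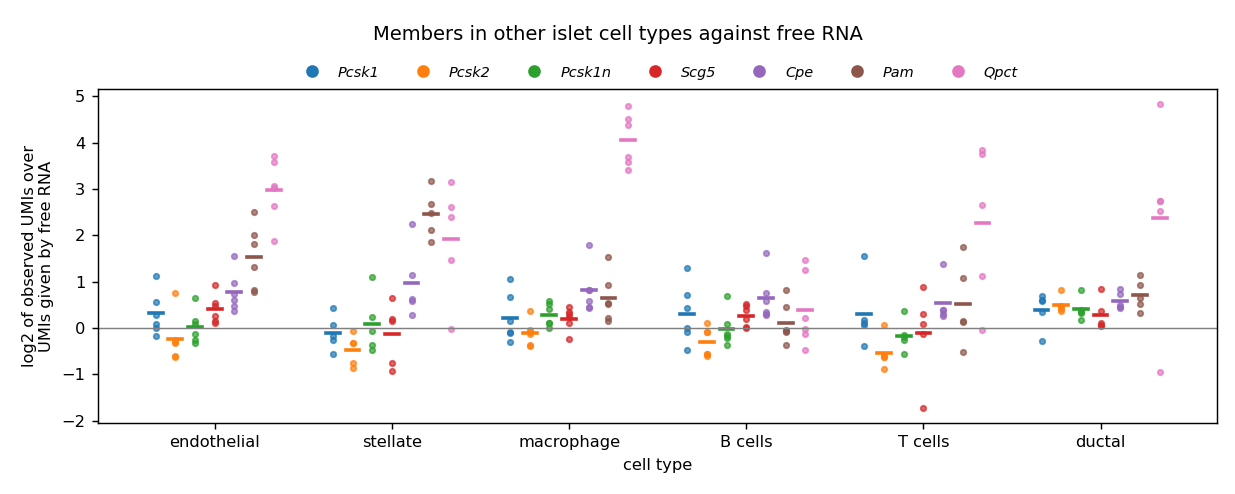
Log2 of observed UMIs over the UMIs given by free endocrine RNA (y axis) for the 7 genes (colours) in 6 other cell types (x axis). Points are libraries with at least 10 cells of the type and short lines their means, and the line at 0 is the free-RNA level. *Qpct* in macrophages (mean 4.06) and *Pam* in stellate cells (mean 2.46) lie above 0 in every library, and *Pcsk2* means lie below 0 except in ductal cells.

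Ductal cells were plotted but not tested. There *Pcsk2* was at 1420 CPM against 1037 CPM given by free RNA (log2 0.50 ± 0.18) and all of the members except *Pcsk1* and *Qpct* were above the mixture in 5 of 5 libraries. *Pcsk1* and *Qpct* were above it in 4 of 5.

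Other genes of peptide processing, a list of 23 further convertases, carboxypeptidases and related enzymes, set these values in context, and 18 were tested between classes. Between α and β cells 6 were higher and 8 lower, between δ and β cells 6 and 8, and between Ppy and β cells 6 and 8, where 62.6%, 61.3% and 52.3% of all genes were called in either direction. *Pcsk6* (PACE4), another convertase, was lower than in β cells in all 3 classes, with log2 fold changes of −1.28 ± 0.14 in α, −0.31 ± 0.13 in δ and −1.72 ± 0.24 in Ppy cells (adjusted p = 7.1e-10, 0.031 and 1.7e-07, edgeR). *Furin*, the convertase of the trans-Golgi network, was called in Ppy cells only (log2 0.36 ± 0.14, adjusted p = 0.031). Among carboxypeptidases, *Cpn1* was higher in α cells (log2 1.05 ± 0.08, adjusted p = 1.9e-13) and *Cpm* lower (log2 −1.68 ± 0.20, adjusted p = 3.2e-09). *Tpst1*, a tyrosylprotein sulfotransferase, was higher in α, δ and Ppy cells, by 1.03, 0.41 and 1.31. Between genotypes edgeR called 0 of the list in any class, with an unadjusted p under 0.05 for 2 of 18 in β cells, 0 of 14 in α cells, 1 of 17 in δ cells and 0 of 16 in Ppy cells, beside 419 of 9214, 355 of 8807, 322 of 9242 and 438 of 8972 of all genes.

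Across the 24 sums of 6 libraries and 4 classes, the members did not vary as 1 group. *Pcsk2* and *Pcsk1n* had a Pearson correlation of 0.88, and *Pcsk1* had correlations of −0.82 with both, while *Cpe* and *Pcsk1* were at 0.12. These describe sums that share libraries and class means and are not tests. Of 3889 genes at a mean of at least 50 CPM, those most like *Pcsk1* were *Zdhhc2* (r = 0.96), *Asah1* (0.96) and *Pclo* (0.96). Those most like *Pcsk2* were *Irx2* (0.91), *Rplp2* (0.91) and *Wnk3* (0.90), and those most like *Pcsk1n* were *Wnk3* (0.95), *Cryba2* (0.95) and *Irx2* (0.95). *Cpe* was most like *Qsox1* (0.93), *Scg5* most like *Fxyd3* (0.92) and *Pam* most like *Sinhcaf* (0.88). Once class means were removed, the correlations with *Pcsk1* fell to 0.56 (*Zdhhc2*), 0.57 (*Asah1*) and 0.20 (*Pclo*). Those with *Pcsk2* fell to 0.24 (*Irx2*), 0.48 (*Rplp2*) and 0.06 (*Wnk3*). Those with *Pcsk1n* fell to −0.23 (*Wnk3*), 0.44 (*Cryba2*) and −0.13 (*Irx2*). The values were 0.24 for *Qsox1* with *Cpe*, −0.04 for *Fxyd3* with *Scg5* and 0.30 for *Sinhcaf* with *Pam*.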

How the data were processed

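Islet cells of 3 WT and 3 KO samples were profiled with the 10x Genomics 3′ kit (v3.1). The authors mapped reads with Cell Ranger (6.0.2, per the labels) to mm10 and deposited raw UMI counts per gene and barcode. No further filter by the authors was seen, and Seurat, also named in the labels, was not used here.

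Barcodes with at least 500 genes and at most 10% mitochondrial UMIs were kept, and the highest Scrublet scores (scanpy 1.11.5, at a rate that rose with the number of barcodes) were left out (66 to 762 per library), because the automatic threshold marked 0 to 1.66% of barcodes. Endocrine cells had at least 3500 UMIs, 1 hormone above its minimum (15.4% *Ins1* plus *Ins2*, 3.65% *Gcg*, 0.365% *Sst*, 11.5% *Ppy*, each at the trough of its distribution) and under 3 markers of any other type. Within a factor of 1.25 of these minima lay 1203, 89, 52 and 78 of 16168 barcodes. Other types had at least 3 of their markers, at most 1 of another type and under 20% hormone UMIs, and a library with under 10 cells of a type was left out.

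UMIs were summed per library and class and tested with edgeR 4.0.16 (TMM, quasi-likelihood, R 4.3.3), with Benjamini-Hochberg adjustment. The main fits kept the hormone UMIs. Genes needed a UMI in over 15% of cells, and a call needed an adjusted p under 0.05 with a log2 change beyond 0.1 either way. Class contrasts used library as a block, and genotype contrasts had no block. Libraries were paired by replicate number, which the labels do not describe as a pair or batch. The same-numbered deviations of the β sums correlated at 0.494, 0.446 and 0.249. Whether equal numbers share a batch was not tested. For each class the fit with all cells entered the test of unequal genotype differences. Replicate libraries differed by more than sampling noise. The fits were tested on simulated data. Free RNA was estimated as the non-negative mixture of the endocrine sums closest to the *Ins2*, *Gcg*, *Sst* and *Ppy* UMIs of a cell type (within log2 0.272 except in macrophages of WT replicate 2, at 1.16), and 0.5 UMIs were added to counts in ratios. DESeq2 1.42.0 was an alternative, as were other filters, cell limits, a block and leaving out each library. Counting intervals cover counting error only, and the precision is set by 64 to 126 δ cells and 15 to 43 Ppy cells per library. Gene positions came from GENCODE vM21 on GRCm38. The genes, lists and tests were chosen with earlier results of these data known. The named genes were the 7 members, the hormones and *Ywhaz*, examples of the 23 other processing genes where called, and the 3 genes most like each member, of which the first was named for *Cpe*, *Scg5* and *Pam*. Some called or marker genes are not reported here.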

Additional observations from a re-analysis of the deposited data

How the results depend on the processing

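Each count of tested genes past the threshold stayed within 1.5 times its main value in every alternative that was run (60 values with 1 library left out and 81 others), and the count between δ and β cells ran from 4 to 6 of 6 with 1 library left out. Of the single values, 332 kept direction and call with 1 library left out, 31 turned sign, 1 gained and 3 lost a call. Under the other settings 538 kept both, 23 turned, 6 gained and 5 lost a call, and 5 without a test moved beyond their spread. Of the calls gained, 2 are *Pcsk1* between Ppy and δ cells with free β cell RNA subtracted (log2 −0.84 for the level and −0.87 for its ratio to *Pcsk2*). These 2 were counted by an unadjusted exact sign-flip permutation p under 0.05, after seeing the data, and did not face the adjusted threshold. No KO against WT value that turned was called, and the cause of the turns was not tested. With 1 library left out, KO against WT log2 fold changes ran in β cells from −0.073 to 0.088 (*Pcsk1*), −0.18 to 0.052 (*Cpe*), −0.080 to 0.17 (*Scg5*) and −0.23 to 0.020 (*Pam*), and in α cells from −0.093 to 0.039 (*Pcsk2*), −0.0034 to 0.11 (*Pcsk1n*) and −0.066 to 0.061 (*Scg5*). They ran in δ cells from −0.032 to 0.37 (*Pcsk1*), −0.097 to 0.023 (*Pcsk2*) and −0.047 to 0.091 (*Pcsk1n*), and in Ppy cells from −0.065 to 0.15 (*Pcsk2*), −0.067 to 0.037 (*Pcsk1n*), −0.00094 to 0.17 (*Scg5*) and −0.12 to 0.12 (*Pam*). *Pam* in Ppy against β cells ran from −0.18 to 0.0037. *Scg5* in β cells turned to −0.019 with *Ywhaz*-positive KO cells kept. In α cells it turned to −0.0016 with hormones left out, −0.010 without doublet calls, −0.051 with a 3-fold dominant hormone, −0.0043 at 20% mitochondrial UMIs and −0.0036 at 2500 genes, the last chosen after seeing the data. *Pcsk1* in δ cells turned to −0.21 with a 3-fold dominant hormone. In Ppy cells *Pcsk1n* turned to 0.034 without doublet calls, 0.045 with a 3-fold dominant hormone and 0.0094 at 20% mitochondrial UMIs, where *Pcsk2* turned to −0.0084. *Cpe* between α and β cells turned to −0.060 without the filter on low counts. With *Ins2* alone setting free RNA, log2 values turned to 0.14 and 0.40 for *Pcsk2* in endothelial cells and macrophages, 0.35 and 0.25 for *Pcsk1n* in B and T cells, and 0.20 and 0.22 for *Scg5* in stellate and T cells. With no hormone limit they turned to −0.14 (*Pcsk1*), −0.022 (*Pcsk1n*) and −0.17 (*Scg5*) in macrophages, and 0.058 (*Pcsk1n*) and 0.22 (*Scg5*) in T cells. The *Pcsk1n*-to-*Pcsk1* difference between Ppy and δ cells lost its call after thinning (log2 0.41). Without the low-count filter *Pcsk2* lost its call in Ppy against β cells (adjusted p = 0.0945, edgeR) and *Pam* gained 1 (adjusted p = 0.011). The replicate block changed no call of these genes (0 in each class). Over all genes in β, α, δ and Ppy cells, the main design gave 1, 0, 0 and 1 calls, the replicate block 12, 3, 6 and 2, the unfiltered fit 3, 38, 11 and 7, and DESeq2 7, 1, 0 and 1. The 15 to 43 Ppy cells per library and 7 to 59 *Pcsk1* UMIs in α cells limit what could be detected there.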
